A study of Mus musculus with 4 samples.

Results

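The 10 genes described here are core genes of the Notch pathway: the receptors Notch1 and Notch2, the ligands Jag1 and Dll1, the DNA-binding factor Rbpj, the co-activator Maml2, the effectors Hes1, Hes5 and Hey1, and the feedback inhibitor Nrarp. They were chosen by name, with earlier results of these data known. Every interaction in a genome-wide H3K27ac HiChIP list was taken in which either anchor overlapped the body of one of these genes or 2.5 kb around either of its ends. This gave 434 of 99041 interactions, or 0.438% of the list.

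The sample titles call the libraries ChIP-seq, whereas the extraction protocol and the series design name HiChIP, which is the term kept below, since every line gives a pair of anchors. H3K27ac HiChIP ligates DNA ends from regions close to each other in space and enriches for those carrying H3K27ac, a histone mark of active promoters and enhancers. There are 2 libraries of YAP-M tumor, with the genotype YAP-M fusion, and 2 libraries of wild-type mouse neural stem cells, labelled by tissue as brain. YAP-M stands for a fusion of the co-activator YAP1 with MAMLD1. All 4 libraries share the H3K27ac antibody, and the labels give the same neural stem cell medium with EGF, basic FGF and heparin for all of them. The labels give no age or strain, no promoter that drives the fusion and no statement on pooled animals.

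The deposited positions form 1 list, whose name carries letters read here as YAP-M. Neither the labels nor the header ties it to particular libraries. Each line holds the positions of 2 anchors of 10 kb on mm10 and nothing else, so a count below is a number of listed pairs of bins and not a number of reads. Sequencing depth is unknown, no value has a replicate error, and tumor could not be set against neural stem cells. The labelled cell types could not be checked from positions alone. Shares carry exact Clopper-Pearson 95% intervals, which cover counting error only and are too narrow, since neighbouring bins are not independent.

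Notch signalling passes between touching cells. A ligand of the Delta-like or Jagged family on a neighbour binds a Notch receptor, proteases then free the intracellular domain of the receptor, and this domain enters the nucleus and joins RBPJ and a Mastermind-like co-activator on DNA. In the developing brain the pathway is known for keeping neural progenitors undifferentiated, largely through the Hes and Hey repressors. MAMLD1, the fusion partner of YAP1 in these tumors, is related in sequence to the Mastermind-like family to which Maml2 belongs.

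The RefSeq promoter table of GRCm38.p6, the assembly of mm10, held entries for 8 of the 10 genes, not for Hes1 and Hey1. Each entry runs from 250 bases before to 50 bases after a listed transcription start. Both strands were searched for an RBPJ motif (TGGGAA) and its longer form (GTGGGAA), a TEAD motif (GGAATG), an AP-1 motif (TGAGTCA or TGACTCA) and an NFI motif (TTGGC, 5 bases of any kind, GCCAA). TEAD factors are the DNA-binding partners of YAP1. The RBPJ and TEAD motifs share the letters GGAA, so 1 stretch can match both. Over the 20085 promoter entries of coding genes, 24.1% held TGGGAA, 5.95% GTGGGAA, 13.4% GGAATG, 4.70% an AP-1 motif and 0.0349% the NFI motif.

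4 promoters are printed 5′ to 3′ on the strand of the gene, because their genes carry contrasting contact patterns below and 3 of them hold matches. Capitals mark matches to the RBPJ or TEAD motif on either strand. Positions below are those of the first base of a match as printed, counted from the start as 0.
Notch1 (chr2:26503773-26504072, minus strand): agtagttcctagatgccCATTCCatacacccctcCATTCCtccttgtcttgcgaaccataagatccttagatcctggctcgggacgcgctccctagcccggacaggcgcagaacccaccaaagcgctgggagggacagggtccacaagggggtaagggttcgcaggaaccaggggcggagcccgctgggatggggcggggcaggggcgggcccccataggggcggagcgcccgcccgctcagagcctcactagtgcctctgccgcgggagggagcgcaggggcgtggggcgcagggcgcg
Jag1 (chr2:137116471-137116770, minus strand): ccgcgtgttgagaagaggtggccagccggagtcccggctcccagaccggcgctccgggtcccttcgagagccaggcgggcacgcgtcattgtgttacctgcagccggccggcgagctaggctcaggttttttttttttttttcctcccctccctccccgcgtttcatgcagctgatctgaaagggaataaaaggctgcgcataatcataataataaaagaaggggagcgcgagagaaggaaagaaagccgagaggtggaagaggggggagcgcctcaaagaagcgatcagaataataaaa
Rbpj (chr5:53590096-53590395, plus strand): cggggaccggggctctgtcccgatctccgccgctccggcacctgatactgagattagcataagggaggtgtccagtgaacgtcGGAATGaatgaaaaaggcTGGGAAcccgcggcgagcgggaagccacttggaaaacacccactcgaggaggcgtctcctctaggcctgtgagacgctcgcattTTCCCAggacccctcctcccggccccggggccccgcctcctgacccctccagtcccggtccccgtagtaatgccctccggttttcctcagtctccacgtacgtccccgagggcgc
Hes5 (chr4:154960673-154960972, plus strand): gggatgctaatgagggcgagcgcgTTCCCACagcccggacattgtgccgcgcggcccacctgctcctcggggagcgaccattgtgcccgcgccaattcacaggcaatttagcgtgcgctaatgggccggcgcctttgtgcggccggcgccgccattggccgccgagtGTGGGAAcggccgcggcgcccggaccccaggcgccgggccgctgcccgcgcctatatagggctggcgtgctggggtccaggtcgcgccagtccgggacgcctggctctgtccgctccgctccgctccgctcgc

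The Hes5 promoter held the longer RBPJ motif at 2 places, one on each strand, at positions -226 and -83 relative to the start. Of all coding promoters, 0.259% held it at 2 or more places. Hes5 is a known direct target of Notch signalling. The Rbpj promoter held TGGGAA at positions -149 and -65, on opposite strands, and GGAATG at -167. TGGGAA stood at 2 or more places in 3.59% of coding promoters. The Notch1 promoter held GGAATG at 2 places, both on the opposite strand, at positions -233 and -216. Of all coding promoters, 1.12% held it at 2 or more places. The promoter of the second listed start of Maml2 held TGGGAA once. In all, 3 of the 8 genes had an RBPJ match, 2 had a TEAD match, and neither an AP-1 nor an NFI match was present in these windows. These counts by gene were not set beside counts by gene over all coding genes. Some of these genes have more than 1 entry, and 4 of their 11 entries held TGGGAA, against 24.1% of all entries. The 2 Rbpj entries overlap. The site at -65 in the first is the site at -205 in the second, so both entries count it. The Jag1, Dll1, Notch2 and Nrarp windows held none of the letters searched. A match is a description of the letters and does not show binding.

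All 10 Notch genes had at least 1 listed interaction, against 67.8% of the 20665 autosomal coding genes counted in the same way. The 10 genes are few and a fixed set, chosen with earlier results of these data known. This contrast and those below are therefore descriptions without a sampling error. The median was 25.5 interactions per Notch gene (range 4 to 168), whereas over all coding genes the median was 3 and the upper quartile 9. Maml2, Rbpj, Jag1, Hes1 and Notch2 each had 20 or more interactions, the count that marks the top 10% of coding genes by a rule that 9.18% of them met. The other 5, Notch1, Hey1, Dll1, Hes5 and Nrarp, had 4 to 16. The 3 highest counts, those of Maml2, Rbpj and Jag1, made up 303 of the 434 interactions (69.8%).

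**Figure D1:**
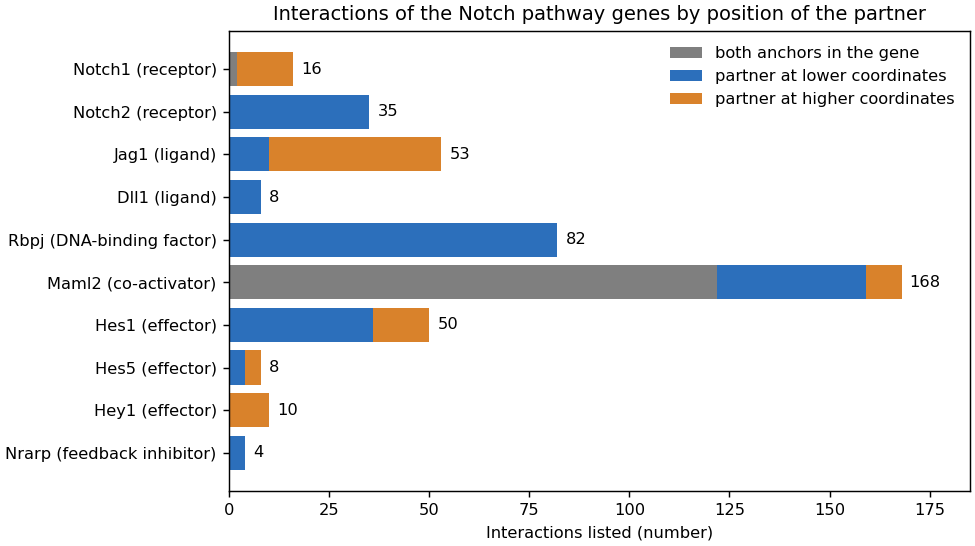
Number of listed interactions of each Notch pathway gene (x axis), split into those with both anchors in the gene, those with the partner at lower coordinates and those with the partner at higher coordinates. The bars run from 4 at Nrarp to 168 at Maml2, and most of the Maml2 bar is interactions within the gene.

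Long genes cover more bins and can collect more interactions. Over the 10 genes, the Spearman correlation between length and interactions was 0.66, and over all coding genes it was 0.37, both given as a description. Per bin covered, the Notch genes had a median of 4 interactions, against 0.667 over all coding genes. Each gene was also set beside the coding genes whose length lay within a factor of 1.5 of its own. All 10 had more interactions than the median of those genes. Jag1 and Hes1 each had more than 99.5% of coding genes of similar length, Rbpj and Maml2 each had more than 98.9%, and Nrarp was lowest at 65.4%.

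**Figure D2:**
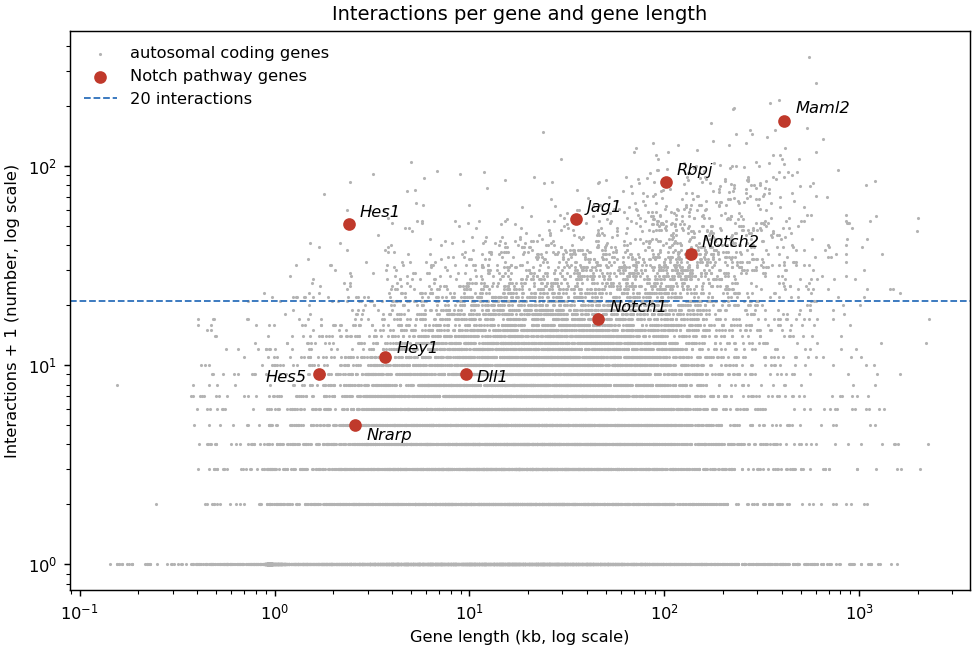
Interactions plus 1 (y axis, log scale) against gene length in kb (x axis, log scale) for all autosomal coding genes (grey) and the 10 Notch pathway genes (red); the dashed line marks 20 interactions. Hes1, at 2.4 kb, stands at 50 interactions, where most genes of its length have few or none, and 5 of the 10 red points lie above the line.

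Of 310 interactions that left a Notch gene, 65 reached an end of another coding gene (21.0%, interval 16.6 to 25.9), against 47.9% of 134311 over all coding genes. The 134311 count an interaction once for each gene that it left, so bins holding several genes weigh more. Without Maml2 the share was 14.4% (38 of 264, interval 10.4 to 19.2). Taken gene by gene, the median share was 17.5% over the 10 Notch genes and 62.5% over the 13868 coding genes with a leaving interaction. Among the 10 it was 0% for Notch1, Rbpj and Hes1, 1.89% for Jag1, and 75.0% and 77.1% for Hes5 and Notch2. Of the 153 partner bins of all 10 genes, 77 (50.3%) held no annotated gene and 32 (20.9%) held only a noncoding gene. Another 26 (17.0%) lay inside a coding gene and 18 (11.8%) held the end of one. Jag1, Hes1 and Rbpj supplied 44, 37 and 21 of the 153 bins, and 26, 21 and 21 of those without a gene. The shares of partner bins were not set beside those of all coding genes.

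The median distance between anchors was 210 kb for the Notch genes (interquartile range 140 to 310 kb), against 180 kb for the whole list (100 to 300 kb). The listed distances ran from 20 to 1000 kb. The Spearman correlation between the farthest distance and the number of coding genes within 500 kb was -0.83 over the 10 genes. It is given as a description and was not set beside all coding genes. Jag1, with 3 coding genes within 500 kb, reached 840 kb, and Nrarp, with 55, reached 90 kb. These 2 genes also differed in interactions, 53 at Jag1 and 4 at Nrarp. In 6 of the 10 genes all partners outside the gene lay on 1 side, as in 45% of the 9493 coding genes with at least 4 leaving interactions, the fewest of any Notch gene. No interaction joined 2 of the 10 genes. Nrarp and Notch1, the closest pair on a chromosome, are 1275 kb apart, beyond the longest distance in the list.

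**Figure D3:**
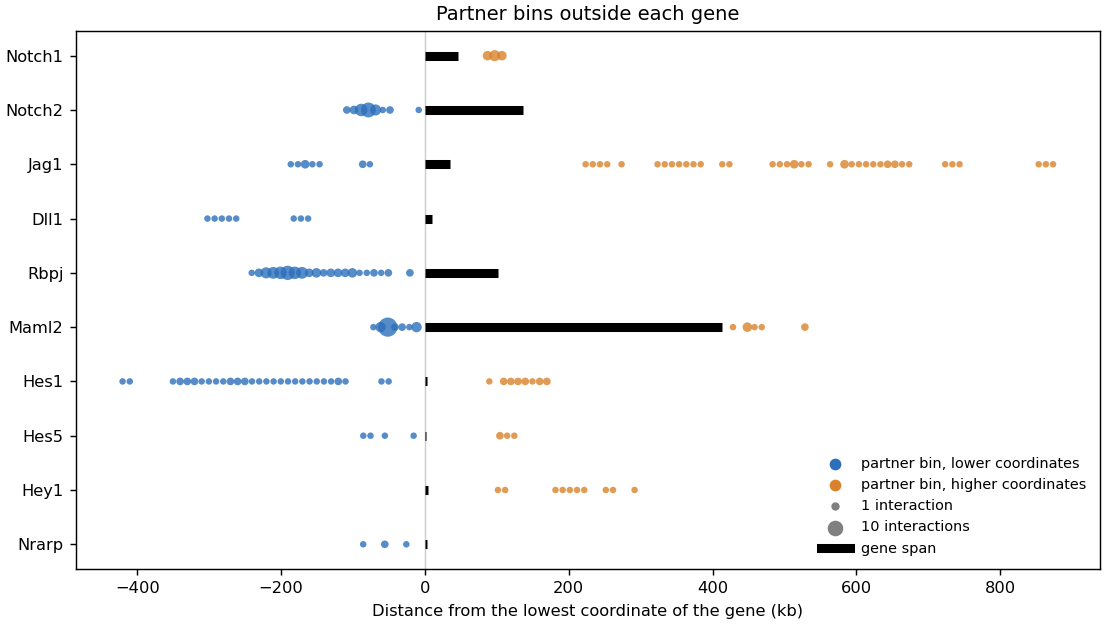
Position of every partner bin outside each gene, in kb from the lowest coordinate of the gene (x axis); point size is the number of interactions and black bars are gene spans. Rbpj and Hes1 have unbroken rows of partner bins at lower coordinates, and Jag1 has 44 partner bins spread over both sides.

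Of the receptors, Notch1 (chr2:26457902-26503822, minus strand, 45.9 kb) had 16 interactions, of which 2 were within the gene. All 6 bins over the gene took part, with 3, 2, 3, 3, 4 and 3 interactions from the lowest coordinate to the highest. The bin with the listed start had 3, and the most, 4, were in chr2:26490001-26500000 inside the gene. The other 14 interactions all ended in 3 adjacent bins, chr2:26540001-26570000, upstream of the start and 36.2 kb beyond the gene. They filled 14 of the 18 possible pairs of a gene bin with a partner bin (77.8%). The partner bins held no coding gene, and the farthest lay 100 kb from its gene bin. All 3 also contacted an end of Sec16a, whose end lies in the bin next below Notch1, a bin with 9 interactions of its own. Merging neighbouring pairs, those whose lower anchors and whose higher anchors both differed by no more than 1 bin, left 2 separate contacts.

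Notch2 (chr3:98013538-98150367, plus strand, 136.8 kb), the second receptor, had 35 interactions, and every one ended at lower coordinates, upstream of the start. Of its 15 bins, 13 took part with 1 to 4 interactions each, so no single bin of the gene stood out. The bin with the start was among those with 4. 34 of the 35 ended in 7 adjacent bins, chr3:97900001-97970000, which are 43.5 kb from the gene. That stretch holds 2 coding genes, and 27 of the 35 interactions (77.1%) reached an end of at least 1 of them: 22 Notch2 interactions reached an end of Gm5544 and 13 an end of Sec22b, a gene for a vesicle-trafficking SNARE protein. Notch1 and Notch2 thus shared a layout in which all or most bins of the gene contacted mainly 1 upstream stretch. That stretch held gene ends at Notch2 and no coding gene at Notch1. The layout was not particular to the receptors, since at Rbpj 80 of 82 interactions ended in 1 upstream stretch. Of the 8 Notch2 partner bins, 5 also contacted an end of another coding gene, Reg4 in 4 of them.

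Of the ligands, Jag1 (chr2:137081451-137116520, minus strand, 35.1 kb) had 53 interactions, with 43 higher and 10 lower. From the lowest bin to the highest its 5 bins had 3, 5, 0, 2 and 43. The bin with the listed start, chr2:137110001-137120000, had 37 of the higher and 6 of the lower interactions, and the bin next above the gene had 0. The partners formed 44 bins in 11 separate stretches between 136890001 and 137960000 on chromosome 2, up to 220 kb to the lower side and 840 kb to the higher side. The longest stretch, chr2:137660001-137760000, was 543.5 kb upstream of the gene and received 14 interactions. Of the 44 bins, 26 held no gene and 11 only a noncoding gene. The lower stretches overlapped Slx4ip, a neighbour whose protein binds the SLX4 nuclease scaffold, and 1 interaction reached a bin with ends of Mkks and Slx4ip, 220 kb away. Apart from the interactions with the bins over Jag1, none of the 44 partner bins contacted an end of a coding gene. Of the 53 interactions, 8 came from bins that also hold the end of Slx4ip and could belong to it.

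Dll1 (chr17:15367354-15376932, minus strand, 9.6 kb), the other ligand, had 8 interactions, all from the bin with its listed start and none from the other bin over the gene. All 8 went to lower coordinates, past the end of the gene, in the direction opposite to most of the Jag1 contacts relative to transcription. They ended in a stretch of 5 bins, chr17:15060001-15110000, and one of 3 bins, chr17:15180001-15210000, with 1 interaction to each bin. 2 of them reached an end of Ermard at 280 and 290 kb. Dll1 had more interactions than 70.5% of coding genes and Jag1 more than 98.7%. The start bins of these 2 ligands, each 10 kb wide, had 8 interactions at Dll1 and 43 at Jag1.

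Rbpj (chr5:53555779-53657445, plus strand, 101.7 kb) encodes the DNA-binding factor through which all Notch receptors act on genes. Its 82 interactions all ended at lower coordinates, upstream, and none reached an end of a coding gene. Every one of its 11 bins took part, with 3, 8, 6, 16, 20, 8, 6, 4, 6, 3 and 2 interactions from the lowest to the highest. The highest count, 20, was in chr5:53590001-53600000, the bin that holds both listed starts, 53590346 and 53590486, inside the RefSeq span of the gene. 80 of the 82 ended in 20 adjacent bins, chr5:53310001-53510000, a stretch of 200 kb that lies 45.8 kb from the gene. None of the 21 partner bins held an annotated gene of any kind, and 2 of them also contacted an end of another coding gene (Tbc1d19 and Stim2). After merging, the 82 interactions formed 2 contacts, or 41 interactions per contact, the highest such ratio of the 10 genes. The pair filling was 35.5% of 231 possible pairs.

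Maml2 (chr9:13296561-13709533, plus strand, 413.0 kb) encodes a Mastermind-like co-activator and had the most interactions, 168, more than 98.9% of the 476 coding genes of similar length. Of these, 122 (72.6%) had both anchors in the gene. The first 4 bins, chr9:13290001-13330000, had 34, 30, 23 and 6 interactions, and 84 of the 122 interactions within the gene (68.9%) had an anchor there. The 8 bins after them, 80 kb in all, had none, and the 31 bins beyond had 2 to 18 each. The bin with the first listed start, 13297958, had 30 partners inside the gene at 130 to 420 kb. The bin with the second listed start, 13662460, had 11 interactions, and 1 interaction joined the bins of the 2 starts. The last bin, chr9:13710001-13720000, had 18 and entered through the 2.5 kb window alone. The first bin also holds an end of Ccdc82, so its 34 interactions can belong to either gene.

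Of the 46 Maml2 interactions that left the gene, 37 went lower and 9 higher, and 27 (58.7%) reached an end of another coding gene. 21 reached the bin that holds ends of Ccdc82 and Jrkl, 4 reached Mtmr2, a lipid phosphatase gene, and 2 reached the bin with ends of Cep57 and Fam76b. Of the 12 partner bins outside the gene, 11 also contacted an end of a coding gene other than Maml2. Among the 382 coding genes of Maml2-like length that had an interaction, the median share within the gene was 33.3%, and Maml2 was above 81.2% of them. Its paralog Maml3, similar in length at 418.0 kb, had 122 interactions, of which 47 (38.5%) were within the gene. Over the 10 Notch genes together the share within the gene was 28.6% (124 of 434, interval 24.4 to 33.1), against 9.39% over all coding genes. Without Maml2 the Notch share was 0.752% (2 of 266, interval 0.0912 to 2.69). The share over all coding genes counts an interaction once for each gene.

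**Figure D4:**
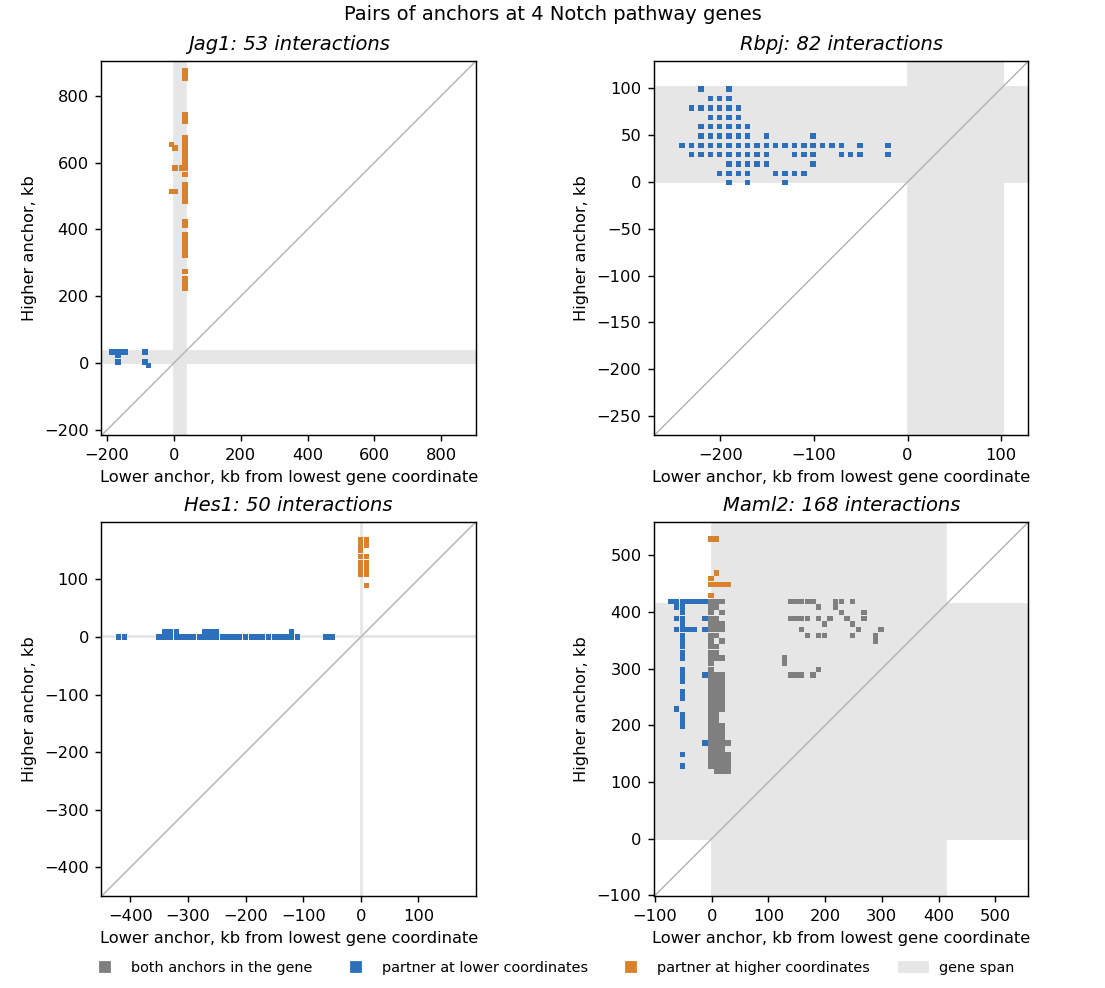
Each square is 1 listed interaction, placed by its lower anchor (x axis) and higher anchor (y axis), in kb from the lowest coordinate of the gene, for Jag1, Rbpj, Hes1 and Maml2; grey bands are gene spans. The 53 Jag1 squares fall mostly in 1 column at the start bin, the 82 Rbpj squares fill a block upstream across the whole gene, and most of the 168 Maml2 squares lie where the grey bands cross.

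Of the effectors, Hes1 (chr16:30065357-30067796, 2.4 kb) encodes a basic helix-loop-helix repressor that Notch signalling induces. It had 50 interactions, 36 lower and 14 higher. The bin that holds the gene, chr16:30060001-30070000, had 36, with 29 lower and 7 higher. The next bin, chr16:30070001-30080000, had 14 and entered through the window alone. Of its 14 partner bins, 13 were among the 36 partner bins of the first. 32 of the 50 interactions ended in 25 adjacent bins, chr16:29710001-29960000, a stretch of 250 kb that starts 105.4 kb from the gene, and 13 ended in 7 adjacent bins on the other side, chr16:30170001-30240000. None reached an end of a coding gene. Of the 37 partner bins, 21 held no gene, 14 only a noncoding gene, and 2 lay inside Opa1, a gene for a mitochondrial fusion GTPase. With 25.0 interactions per bin covered, Hes1 was above 99.8% of coding genes on that scale. The bins beside it had 12 and 3 interactions, which are not counted here. The noncoding gene Gm32998 also overlaps the bins counted for Hes1, so interactions there can belong to it. Noncoding genes also overlap bins counted for Notch1, Notch2, Maml2, Hes5 and Nrarp.

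Hes5 (chr4:154960626-154962372, plus strand, 1.7 kb), a repressor of the same family, had 8 interactions, 4 on each side, none beyond 120 kb. 6 of the 8 (75.0%) reached an end of another coding gene: 3 reached Pex10, 2 Plch2, 2 Rer1, and 1 each Mmel1, Morn1 and Prxl2b, where 1 bin can hold ends of several genes. All 7 partner bins also contacted other coding genes, Faap20 in 6 of them. 7 of the 8 interactions came from the bin with the start, which also holds an end of Pank4, so they can belong to either gene. Hes5 lay among 16 coding genes within 500 kb and Hes1 among 7. The paired RBPJ letters of the Hes5 promoter printed above stood in a bin with 7 interactions. The Rbpj start bin, also with RBPJ matches, had 20, and the bin of the second Maml2 start, with 1 match, had 11. Where the promoter had no RBPJ match, the start bin had 43 at Jag1 and 34 at the first Maml2 start. It had 8 at Dll1, 4 at Notch2 and 3 at both Notch1 and Nrarp. Any relation between letters and counts was not tested.

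Hey1 (chr3:8663359-8667038, 3.7 kb), the third effector and a relative of the Hes repressors, had 10 interactions from 1 bin, all higher, to 10 bins at 100 to 290 kb. Of these bins 7 overlapped Mrps28, a mitochondrial ribosomal protein gene, and 1 of the 7, at 260 kb, held ends of both Mrps28 and Tpd52. The bins on both sides of Hey1 had 0. Its bin also holds an end of LOC115489673, so all 10 interactions can belong to that gene. Nrarp (chr2:25180758-25183339, plus strand, 2.6 kb) encodes an ankyrin-repeat protein that Notch induces and that limits Notch activity. It had the fewest, 4, all upstream and within 90 kb, to 3 separate bins. One of them, 90 kb away, holds an end of Noxa1, an NADPH oxidase activator gene. In the order of counts, Dll1 and Hes5 were equal at 8, and without a replicate error no spread could be set on the gaps between neighbours.

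Of 8 genes with a listed start, the bin with the start had the most interactions, or tied for the most, in 7, and Notch1 was the exception. The same held for 59.5% of the 10862 coding genes with an interaction, a listed start and 2 or more bins. Dll1, Hes5 and Nrarp cover only 2 bins. Among genes of 4 or more bins it held for 4 of 5 Notch genes and for 53.6% of 6065 coding genes. The share of interactions in the start bin differed between the genes. At Jag1 the start bin had 43 of 53 interactions and at Dll1 8 of 8, whereas at Notch2 it had 4 of 35, at Rbpj 20 of 82 and at Maml2 34 of 168. Of the 153 partner bins, 32 (20.9%) also contacted an end of another coding gene through interactions outside the Notch gene's own bins, a share not set beside all coding genes. These bins made up all 3 at Notch1, all 7 at Hes5 and 11 of 12 at Maml2, against 2 of 21 at Rbpj, 2 of 37 at Hes1 and none at Jag1, Hey1 and Nrarp.

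The rest of the pathway was described by a list of 45 other genes, also chosen with earlier results of these data known. Of the 45, 41 had an interaction and 7 had 20 or more, against 67.8% and 9.18% of all coding genes. Their median was 6 interactions (range 0 to 122), against 3 over all coding genes. Of the other receptors, Notch4 had 7 interactions and Notch3 had 3. Of the 6 other ligands the median was 2, with 50 at Dner, a Delta/Notch-like transmembrane protein of neurons, and 5 at Dll3. Among the 6 other effectors the median was 4, with 13 at Hes7, a segmentation-clock repressor, 10 at Hes3 and 0 at Heyl. All interactions of Hes7, Hes3 and Dll3 came from bins that also hold an end of another coding gene. They can therefore belong to either gene. With such shared bins left out, 32 of the 45 genes had an interaction, against 48.0% of all coding genes. Besides Maml3 with 122, the co-activators Maml1 and Snw1 had 11 and 0.

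The 5 sugar-modifying genes, which tune how receptors respond to ligands, had 6 to 13 interactions, with the most at Poglut1 (13) and Mfng (9). With shared bins left out, Poglut1 kept 1 and Mfng 3. Of the proteases, Adam10, which cleaves ligand-bound receptors, had 60, and Furin, which processes the receptor precursor, had 31. Without shared bins Adam10 kept all 60 and Furin 11. Of the 4 genes for ligand endocytosis, Neurl1a had 11, Mib1 had 6 and Mib2 had 0. The 10 negative regulators and E3 ligases had 2 to 85 interactions, with a median of 8, against 3 over all coding genes. Fbxw7, whose product marks the Notch intracellular domain for degradation, had 85, and Dtx4 had 37.

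**Figure D5:**
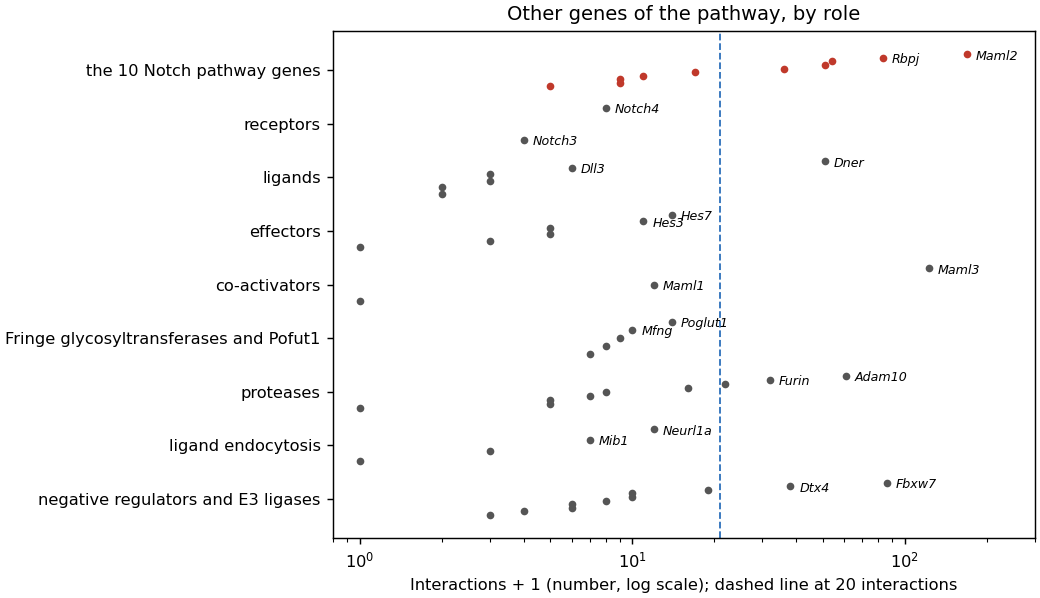
Interactions plus 1 (x axis, log scale) of the 10 Notch pathway genes (top row, red) and of 45 other genes of the pathway in rows by role (grey); the dashed line marks 20 interactions. Of the grey points 7 lie at or above the line, among them Maml3 at 122, Fbxw7 at 85 and Adam10 at 60.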

How the data were processed

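The deposited data used here are 1 list of interactions. Per the file header, it holds the chromosome, start and end of both anchors of each interaction, as deposited by the authors, in base pairs, and no other value. Per the submitters' processing notes, BWA and mm10 were used. Caller, threshold and any pooling of libraries: not given in the sources used here. A caller's threshold and the depth decide which pairs are listed, so a missing pair is not evidence of no contact, and counts of listed pairs are not contact strength. No read counts are in the list, so depth per library is unknown.

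Gene positions came from NCBI RefSeq for GRCm38.p6 (19 autosomes). Transcription starts and strands came from the RefSeq promoter table, which matched 16457 coding genes and 8 of the 10 Notch genes. An interaction was counted for a gene when either 10 kb anchor overlapped the gene widened by 2.5 kb at both ends. A bin that holds several genes counts for each. Distances are between bin starts. Percentiles are the share of coding genes with fewer interactions. Merged contacts join interactions whose lower anchors and whose higher anchors both differ by no more than 1 bin, giving 28050 in the list.

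No test was run, since there is 1 list with no value per library. The 10 genes and the pathway list were chosen with earlier results of these data known. Named were all 10 genes, the 2 highest other pathway genes in each role and those at 0 (1 item is not reported here), each member's highest bin, and up to 6 coding genes with an end in its partner bins. Other genes (Sec16a, Reg4, Faap20, Opa1, Tbc1d19, Stim2 and the genes sharing a bin) were named after their values were seen. Alternatives were windows of 0 and 5 kb, gene ends only, transcription start only, the anchor midpoint, merged contacts, shared bins left out, and distances of 50 kb or more. Counting was tested on simulated data. Python 3.11.15, pandas 2.3.3, numpy 2.4.6, scipy 1.17.1 and matplotlib 3.10.9 were used.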

Additional observations from a re-analysis of the deposited data

How the results depend on the processing

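No paired analysis was possible because values per library were not part of the list, and for the same reason no library could be left out. Of the 7 summary values under 8 alternatives, 38 stayed within their limits and 18 moved. The total of 434 interactions became 206 with gene ends only, 170 with the transcription start only (8 genes) and 62 as merged contacts, and the median of 25.5 became 8, 8 and 4. Over coding genes the median, 3 as reported, became 2, 1 and 2. The number of Notch genes in the top 10% of coding genes, 5 as reported, became 3, 3 and 2. The share of leaving interactions that reached another coding gene end, 21.0%, became 26.1% with a 5 kb window, 9.80% with gene ends only, 10.0% with the transcription start only, 36.7% as merged contacts and 28.0% with shared bins left out. The share within the gene, 28.6%, became 0.971% with gene ends only, 0% with the transcription start only, 22.6% as merged contacts and 23.2% with shared bins left out. Neither share was recomputed over all coding genes under these alternatives. Whether the contrasts with 47.9% and 9.39% over all coding genes hold under them is therefore not known. Gene ends only and transcription start only leave out gene bodies by construction. Other moves also follow in part from the counting. A wider window widens the ends that can be reached. A merged contact counts as reaching an end if any of its pairs does. With shared bins left out, the first Maml2 bin, which holds an end of Ccdc82, became a partner bin. Its 30 partners inside the gene then counted as leaving, and the interactions within a gene fell from 124 to 94.

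Of 78 counts for single genes, 20 moved by over 1.5 times and all of these were lower, 9 of them as merged contacts. Rbpj had 5 interactions with gene ends only, since its listed starts lie inside the gene, and 2 as merged contacts. Hes5 had 0 by the anchor midpoint and 1 without shared bins, and Hey1 had 0 without shared bins. Counted as reported, all 10 genes were above the median of coding genes. With a window of 0 or 5 kb, the anchor midpoint, shared bins left out, or distances of 50 kb or more, 9 were. The exception was Nrarp, equal to the median, with both windows and at 50 kb or more. It was Hes5 by the midpoint and Hey1 without shared bins. As merged contacts, 7 of the 10 genes were above the median of coding genes, which was then 2, and Notch1, Dll1 and Rbpj, with 2 each, were not. Depth could not be weighed, and a stricter threshold could not be tried on a list without scores.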
